A study of Mus musculus with 12 samples.

Results

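The solute carrier genes are the rows of this mouse stem cell RNA-seq table whose symbol begins with Slc and a digit. Of 351 such rows, Slc2a1 and Slc16a3 were set aside, and 109 of the other 349 reached at least 10 normalized counts in at least 3 of the 12 libraries. These 109 are described here, among 8739 rows of 37477 that passed the same filter. The members were thus chosen by their level over the 12 libraries, and that level is no finding. The remaining 240 rows stayed under the filter and 93 of them were listed at 0 in every library. At the edge of the filter, the third highest library was 10.1 normalized counts for Slc25a28, Slc27a1 and Slc48a1 inside it, and 9.99, 9.93 and 9.87 for Slc39a11, Slc35e3 and Slc1a4 outside it. Of the 109 members, 89 reached 10 normalized counts in at least 1 library of each of the 4 groups and 64 did so in all 12 libraries. The other 20 were under 10 in every library of at least 1 group, so their passing the filter rested on the remaining groups. Among these 20, 8 of the genes called below are Slc13a5, Slc25a24, Slc27a4, Slc27a2, Slc35f5, Slc18a2, Slc1a3 and Slc47a1. For these genes the tests below draw on the same values that admitted them and are not independent of that choice. Counts of called members are therefore descriptions.

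All 12 libraries came from CCE cells, a mouse embryonic stem cell line grown with serum and LIF, the cytokine that keeps such cells undifferentiated. Every group had received a pLKO.1-puro lentivirus, a vector that expresses a short hairpin RNA, and was kept in puromycin. The 4 groups of 3 libraries were a control hairpin harvested on day 2 after transduction and a hairpin against the long noncoding RNA TUNA harvested on day 2, day 4 or day 6. Control libraries of day 4 and day 6 were not analysed here, so hairpin and time in culture cannot be told apart on those days. The labels do not state whether replicates were separate cultures, so each p-value reflects library-to-library spread and that spread could be technical. The row of the targeted RNA, 2810011L19Rik, was listed at 0 in all 12 libraries and so gives no check of the knockdown.

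Solute carriers are membrane proteins that move a small molecule down its own gradient, exchange it for another, or couple it to the gradient of an ion. They carry sugars, amino acids, nucleosides, metals, inorganic ions, vitamins and lipids across the cell surface and organelle membranes, and the SLC25 family serves the inner mitochondrial membrane. Rapidly dividing stem cells are known for high glucose and amino acid uptake. By symbol 3 members are no carriers: Slc9a3r1 encodes the scaffold protein NHERF1, Slc4a1ap encodes kanadaptin, and Slc7a6os lies opposite Slc7a6. By substrate the other members fell into 20 amino acid carriers, 5 sugar carriers, 14 carriers of nucleosides and nucleotide sugars, 17 metal carriers, 23 Slc25 genes, 9 carriers of inorganic ions and 18 carriers of carboxylates, vitamins, lipids and other organic solutes.

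Depth, read from the steps between low values was estimated at 3522126 to 5653146 reads per library. Between 60.4% and 76.9% of them fell in the rows of Tex14, LOC100503663 and Rnu3a, a small nucleolar RNA, which left 936421 to 2025000 reads, the most in day 4 replicate 1. At this depth 10 normalized counts correspond to 7.02 to 15.4 reads. The members together held 0.856% to 1.11% of the counts outside those 3 rows. All 10 embryonic stem cell markers checked passed the filter, and their summed level ranged from 3053 to 3261 normalized counts in the control, 2769 to 2938 on day 2, 2668 to 2822 on day 4 and 1889 to 2322 on day 6. Their median log2 change against the control was -0.06, -0.04 and -0.53 on days 2, 4 and 6. On day 4 they moved in both directions. Pou5f1 went from a mean of 737 to 496 and Zfp42 from 526 to 314, but Sox2 from 551 to 617 and Tdgf1 from 293 to 367. Of 10 fibroblast or feeder cell markers, Col1a1, Col1a2, Col3a1, Dcn, Lum and Postn were listed at 0 in every library, while the summed level was 11.9 to 17.6 in the control, 13.5 to 38 on day 2, 27.9 to 44.3 on day 4 and 245 to 338 on day 6, mostly Acta2 and Tagln. Of 8 endoderm markers, Afp, Ttr and Apoa1 were listed at 0 throughout, and none passed the filter. The endoderm sum was 4.6 to 8.63 in the control, 2.27 to 8.96 on day 2, 15 to 21 on day 4 and 1.5 to 10.1 on day 6. Every day 4 library thus lay above every other library. Of 6 neural markers only Neurog2 was at 0 throughout, and 2 passed the filter. The neural sum was 21.1 to 35.9 in the control, 15.7 to 22.4 on day 2, 20.8 to 27 on day 4 and 41.7 to 54 on day 6. The 2 tested markers moved in opposite directions from the control to day 6, Nes from a mean of 4.64 to 28.4 and Tubb3 from 16.3 to 8.96. The part of these shifts in the values below was not tested. In bulk RNA, fewer cells of a type and less RNA per cell cannot be told apart.

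On day 2, the only comparison matched in time, no solute carrier gene passed the test against the control hairpin. On day 4, 12 members were higher and 17 lower, and on day 6, 5 were higher and 7 lower. The test was limma's moderated test on log2(normalized count + 1), fitted over all 8739 rows with Benjamini-Hochberg adjustment and a threshold of 0.05; adjusted p-values below come from it, and its log2 changes understate the change of low genes. The background share of rows called on day 2 was 0.961% (0.412% higher, 0.549% lower), and the lowest adjusted p among the members was 0.123, for Slc35f5. There were 14 members with an unadjusted p under 0.05 on day 2 (12.3% of all rows tested had one), and 29 members whose groups did not overlap (20.1% of all rows). Against the control, 46 members did not overlap on day 4 (32.4% of all rows) and 35 on day 6 (24%). Between hairpin days, 42 did not overlap from day 2 to day 4 (28.6% of all rows) and 30 from day 4 to day 6 (23.3%). Lack of overlap is thus common among all rows. On day 4 the 29 called members are 26.6% of the 109, beside a background of 14.7% of rows called (6.99% higher, 7.76% lower). On day 6 the 12 called members are 11% of the 109, beside a background of 6.21% (3.07% higher, 3.15% lower). The median log2 change over the members was 0.01, -0.09 and -0.05 on days 2, 4 and 6, and over all rows 0.01, -0.01 and -0.01.

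The 3 comparisons share the same control libraries. Slc7a3, Slc20a1, Slc25a12, Slc25a20, Slc13a5 and Slc9a3r1 were lower and Slc25a24, Slc4a7 and Slc35f5 higher than the control on both day 4 and day 6. Another 20 members passed on day 4 alone and 3 on day 6 alone (Slc38a2, Slc35a3 and Slc25a13), which by itself does not show that the days differed. Between the TUNA hairpin groups, where that difference was tested, 3 members were higher and 9 lower on day 4 than on day 2 (background 7.66%, of which 3.27% higher and 4.38% lower), and 2 were higher and 3 lower on day 6 than on day 4 (background 5.58%, of which 2.64% higher and 2.94% lower). With 1 library left out, the 17 falls of day 4 became 9 (without control replicate 2) to 20 and were 11 without control replicate 1, control replicate 3 or day 4 replicate 2. The 12 rises of that day became 8 (without day 4 replicate 2) to 10. Leaving out any of the 6 libraries in turn, 12 of the 29 calls of day 4 always passed, and 5 of the 12 calls of day 6 did. The day 6 rises numbered 2 without control replicate 1 or day 6 replicate 1 and 3 without control replicate 3, and its falls 3 without control replicate 1 and 4 without control replicate 2 or day 6 replicate 1. From day 4 to day 6, the 2 rises became 0 without day 4 replicate 2 or day 6 replicate 1 and 4 without day 4 replicate 3, and the 3 falls became 1 without day 4 replicate 2.

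**Figure D1:**
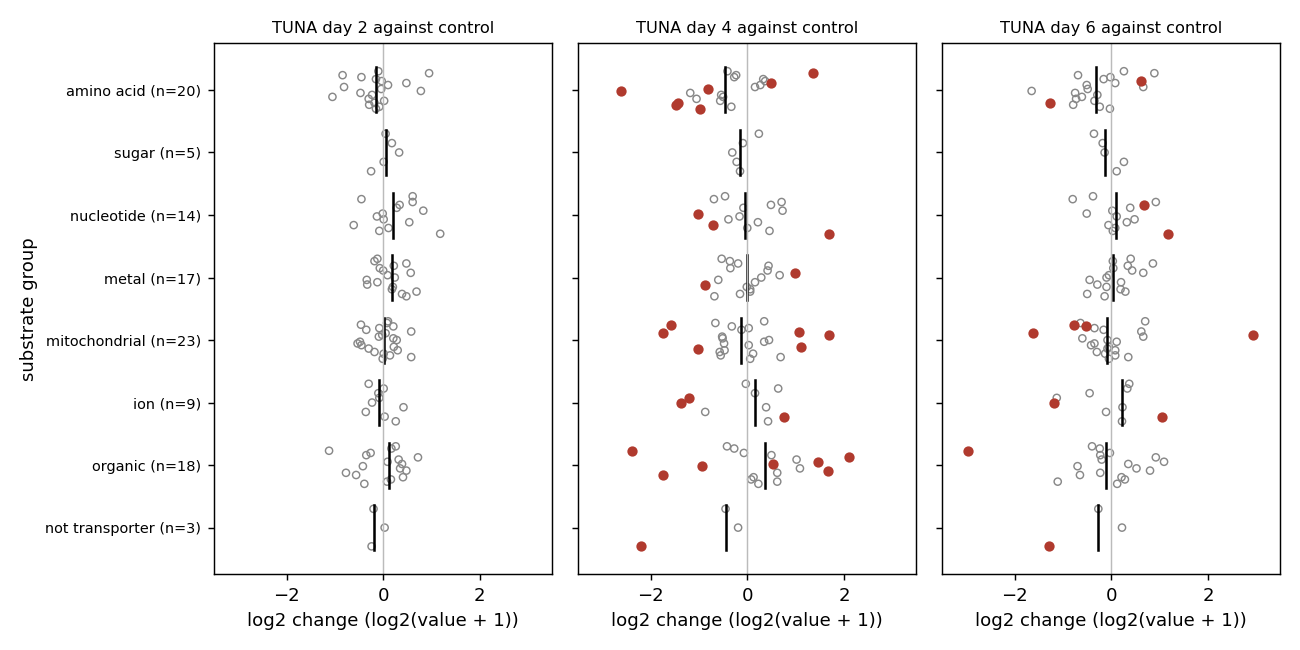
Log2 change of each of the 109 solute carrier genes against the control on day 2 (left), day 4 (middle) and day 6 (right), by substrate group. Filled red points passed limma at adjusted p 0.05, open points did not, and black bars mark group medians; no point is red on day 2, 29 are on day 4 and 12 on day 6.

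Amino acid carriers held 5 of the 17 falls of day 4. Of 20 members, 2 were higher and 5 lower on day 4 (median log2 change -0.45). On day 6, 1 was higher and 1 lower (median -0.32), and on day 2 none passed (median -0.15). The called share of the group was 35% on day 4 and 10% on day 6, beside 14.7% and 6.21% of all rows tested. Slc7a3 encodes CAT3, a carrier of arginine, lysine and ornithine. It had 338, 291 and 269 normalized counts in the control libraries and 263, 293 and 235 on day 2. Its day 4 values were 94.3, 96.9 and 146, and on day 6 147, 99.1 and 130.4. Every library of day 4 and day 6 thus lay under every library of the other groups. The log2 change was -1.43 ± 0.19 on day 4 (SE; adjusted p 0.000107) and -1.26 ± 0.19 on day 6 (adjusted p 0.000475) against -0.18 ± 0.19 on day 2 (adjusted p 0.765). The related arginine carrier CAT1, Slc7a1, had a mean of 28.6 ± 6.97 in the control and 13.6 ± 4.62 on day 4 (SD, n = 3) and did not pass (log2 change -1.05 ± 0.39, adjusted p 0.0834).

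Slc3a2 encodes the heavy chain 4F2hc, which carries several light chains of the Slc7 family to the cell surface. It had 88.7, 75.7 and 61.8 normalized counts in the control, 72, 73.2 and 72.1 on day 2, 52.8, 39.3 and 35.5 on day 4, and 61.6, 51 and 46.8 on day 6. All day 4 libraries lay under all control and day 2 libraries, while the highest day 6 library, at 61.6, lay just under the lowest control library. Slc3a2 fell on day 4 (log2 change -0.82 ± 0.20, adjusted p 0.00992; 0.0542 without control replicate 1), and on day 6 it stood at -0.49 ± 0.20 (adjusted p 0.17). Among its light chains, LAT1 (Slc7a5), which imports large neutral amino acids such as leucine, had 18.1, 22 and 23 in the control and 7.94, 11 and 3.61 on day 4, with no overlap. Slc7a5 changed by -1.48 ± 0.37 on day 4 (adjusted p 0.0124) and kept that call with each library left out. On day 6, at 14.1, 10.8 and 10.6, it did not pass (-0.79 ± 0.37, adjusted p 0.253).

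The light chain y+LAT1, Slc7a7, exports cationic amino acids. It had 29.4, 29.3 and 36.5 in the control, 10.3, 15.6 and 23.6 on day 4 and 28.6, 28.6 and 35.8 on day 6. Its fall on day 4 (-0.97 ± 0.28, adjusted p 0.0284) did not hold without day 4 replicate 1 or 2 or without any 1 of the 3 control libraries (up to 0.127), nor under every other alternative (up to 0.0559). The close relative y+LAT2, Slc7a6, ranged from 73.2 to 84.1 on day 4 and from 86.3 to 109 in the control (-0.33 ± 0.16, adjusted p 0.19). The cystine and glutamate exchanger xCT, Slc7a11, spread from 1.63 to 22.5 over the 12 libraries and passed in no comparison, with adjusted p of 0.679 to 0.999 against the control.

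**Figure D2:**
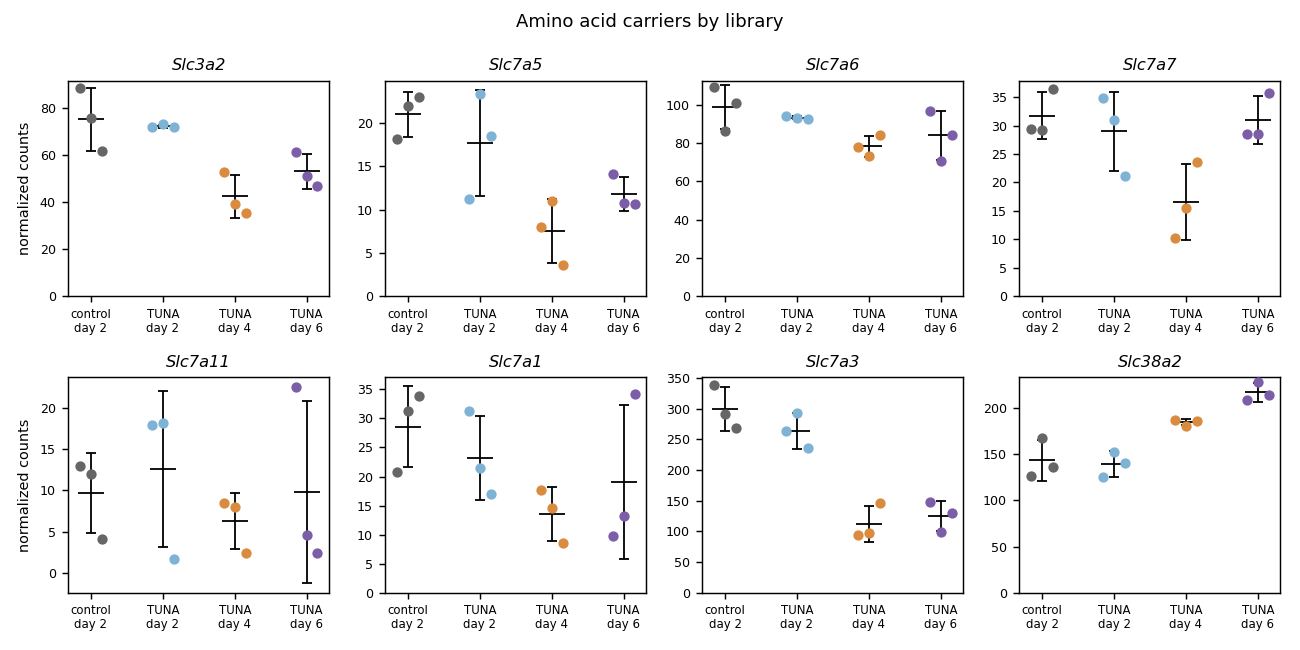
Normalized counts of 8 amino acid carriers in each library (points) by group, with the mean and SD of 3 libraries in black. Slc7a3, at 94.3 to 147 on days 4 and 6, lies under its control range of 269 to 338, and Slc38a2 lies at 209 to 228 on day 6, above its control range of 126 to 168.

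Other amino acid carriers moved the opposite way. Slc38a2 encodes SNAT2, which takes up small neutral amino acids with sodium. It had 126, 168 and 136 in the control, 187, 181 and 186 on day 4 and 209, 228 and 214 on day 6, and both later days lay above the control without overlap. It passed on day 6 (0.61 ± 0.15, adjusted p 0.0168) and not on day 4 (0.37 ± 0.15, adjusted p 0.0938). The day 6 call of Slc38a2 was lost without any of 4 libraries (up to 0.0904). Slc1a3, the glutamate carrier GLAST, had 4.28, 9.74 and 5.34 in the control and 15.9, 18.5 and 17.1 on day 4. It passed on day 4 (1.35 ± 0.34, adjusted p 0.0124, and 0.0574 without control replicate 1). On day 2 Slc1a3 had 13.4, 13.6 and 11.4, also above the control without overlap (0.95 ± 0.34, adjusted p 0.248). On day 6 it had 9.62, 12.5 and 15.1. Slc38a4, the carrier SNAT4, is encoded by an imprinted gene. It had 206, 159 and 144 in the control and 213, 221 and 282 on day 4 (0.49 ± 0.16, adjusted p 0.0467). Its day 2 change was about as large, at 232, 242 and 231, and did not pass (0.48 ± 0.16, adjusted p 0.205). On day 6 it had 161, 196 and 176. The call of Slc38a4 was lost without any of 4 libraries (up to 0.171) and under at least 1 other alternative (up to 0.105).

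The glutamine carrier ASCT2, Slc1a5, had a mean of 13.5 ± 5.78 in the control and 10.9 ± 2.09 on day 4 and did not pass (adjusted p 0.738). On day 2, at 7.84, 6.81 and 5.7, it lay under the control without overlap and did not pass (-0.84 ± 0.39, adjusted p 0.397). Its day 6 mean was 7.83 ± 2.56, which did not pass either. Slc38a9, a lysosomal arginine sensor of the mTORC1 pathway, ranged from 1.42 to 19.1 and passed in no comparison with the control.

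Among the 5 sugar carriers none passed against the control on any day (medians 0.05, -0.15 and -0.14 on days 2, 4 and 6). Slc2a3 encodes GLUT3, a glucose carrier of high affinity, and per kilobase of annotated exon it had the highest control level of the members, at 692 normalized counts per kb, ahead of Slc25a3 at 171 and Slc25a5 at 101. It had 4934, 4953 and 5156 normalized counts in the control and 5157, 5229 and 5176 on day 2. On day 4 it had 5474, 6330 and 5941, and on day 6 4263, 3742 and 3741. All day 4 libraries lay above and all day 6 libraries under the control, yet neither day passed against it (log2 changes 0.24 ± 0.15, adjusted p 0.295, and -0.36 ± 0.15, adjusted p 0.172). The step from day 4 to day 6 did pass (-0.60 ± 0.15, adjusted p 0.0213), but not without day 4 replicate 2 or day 6 replicate 2 (up to 0.105), nor under every other alternative (up to 0.148). The glucose carrier GLUT1, Slc2a1, which was set aside, had 429 to 521 in the control, 819.6 to 855 on day 4 and 539.6 to 667 on day 6, and the lactate exporter MCT4, Slc16a3, also set aside, had 13.5 to 27.2, 76.1 to 86.5 and 14 to 25.7. A processed pseudogene, Gm4482, is annotated inside Slc2a3, so part of these reads may be shared with it. Slc37a3 (range 39.8 to 76.7), Slc37a2 (109 to 181), Slc45a4 (5.7 to 15.9) and Slc50a1 (4.27 to 18.6), members of sugar carrier families, passed in none of the 5 comparisons.

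Of the 23 Slc25 genes, 3 were higher and 3 lower on day 4, and 1 was higher and 3 lower on day 6. The medians were -0.12 and -0.08, and 0.01 with none called on day 2. As a share, 26.1% were called on day 4 and 17.4% on day 6, beside 14.7% and 6.21% of all rows tested. Slc25a36 encodes a carrier that brings pyrimidine nucleotides into mitochondria, where DNA and RNA are made. It had 619.6, 709.9 and 608 normalized counts in the control, 740.2, 800.4 and 714 on day 2, 1387, 1437 and 1369 on day 4, and 673, 613 and 582 on day 6. The 3 day 4 libraries stood far above all 9 others, and the control and day 6 libraries overlapped. Slc25a36 changed by 1.12 ± 0.13 on day 4 against the control (adjusted p 3.03e-05), by 0.90 ± 0.13 from day 2 to day 4 (adjusted p 0.000327) and by -1.17 ± 0.13 from day 4 to day 6 (adjusted p 2.71e-05). On day 6 it was -0.05 ± 0.13 from the control (adjusted p 0.878). An antisense transcript, Gm16185, is annotated inside the gene, and the reads of both strands cannot be told apart here. Elsewhere in the group, the related pyrimidine carrier Slc25a33 ranged from 5.69 to 20.5 and did not pass.

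Slc25a24 encodes a calcium-regulated carrier that exchanges ATP-magnesium for phosphate. It had 3.45, 5.52 and 3.23 in the control, 2.24, 4.48 and 5.7 on day 2, 8.46, 19.2 and 20.8 on day 4, and 29.4, 30.3 and 56.9 on day 6. Each day 4 library was above all control and day 2 libraries, and each day 6 library above all day 4 libraries. Slc25a24 rose by 1.70 ± 0.43 on day 4 (adjusted p 0.0124; 0.0618 without day 4 replicate 2) and by 2.94 ± 0.43 on day 6 (adjusted p 0.000373). It reached 10 normalized counts on those days alone, so the values tested are also those that admitted it. The fibroblast or feeder cell marker sum was also highest on day 6, and the part of other cells in the Slc25a24 value was not tested. Its relative Slc25a25 ranged from 3.36 to 23.6 and passed in no comparison.

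Slc25a20 encodes the carnitine and acylcarnitine carrier, which admits long-chain fatty acids for oxidation. It had 51.8, 56.7 and 49.6 in the control, 44.5, 48.6 and 75.5 on day 2, 16.9, 9.03 and 22 on day 4, and 19.4, 11.7 and 19 on day 6. The later days lay under the earlier ones without overlap, at log2 changes of -1.74 ± 0.30 (adjusted p 0.000948) and -1.63 ± 0.30 (adjusted p 0.00308), and both calls held with each library left out. In the group of organic solutes, Slc27a2 and Slc27a4, fatty acid transport proteins that also activate fatty acids to CoA esters, moved in opposite directions on day 4, as given below.

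Among the Slc25 genes, 3 members serve the malate and aspartate shuttle, which passes the electrons of cytosolic NADH to mitochondria. The aspartate and glutamate carrier aralar, Slc25a12, had 100.4, 96.7 and 93.6 in the control, 54.1, 84.3 and 75.3 on day 2, 30.4, 30.6 and 35.4 on day 4, and 54.3, 55.1 and 58.1 on day 6. It was lower on day 4 (-1.57 ± 0.18, adjusted p 3.8e-05) and on day 6 (-0.78 ± 0.18, adjusted p 0.0145), and higher on day 6 than on day 4 (0.78 ± 0.18, adjusted p 0.0179; 0.0711 at most with 1 library left out). On day 2 all 3 libraries were under the control as well, at -0.46 ± 0.18 (adjusted p 0.309). With 1 library left out the day 4 call of Slc25a12 held each time, and the day 6 call was lost without control replicate 1, control replicate 2 or day 6 replicate 1 (up to 0.0619).

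Its relative citrin, Slc25a13, had 305, 257 and 258 in the control, 331, 324 and 295 on day 2, 219.9, 229.6 and 207 on day 4, and 194, 211 and 164 on day 6. Slc25a13 passed on day 6 against the control (-0.53 ± 0.14, adjusted p 0.0301) and on day 4 against day 2 (-0.53 ± 0.14, adjusted p 0.0277). The first call was lost without any of 5 libraries (up to 0.14) and the second without any of the 6 (up to 0.0962). The oxoglutarate and malate carrier, Slc25a11, had 52.4, 51.4 and 63.2 on day 2 and 30, 43.7 and 26.4 on day 4 (-0.75 ± 0.22, adjusted p 0.0478; up to 0.172 with 1 library left out).

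The glycine carrier Slc25a38, which supplies the first step of heme synthesis, had 23.3, 37.5 and 40.7 in the control, 13, 15.4 and 19.6 on day 4 and 36.4, 24.9 and 33.2 on day 6. It was lower on day 4 than in the control (-1.02 ± 0.26, adjusted p 0.0148) and higher on day 6 than on day 4 (0.94 ± 0.26, adjusted p 0.0453), and both calls were lost with some libraries left out (up to 0.0704 and 0.169). Slc25a17, which by known location serves peroxisomes and not mitochondria, had 12.6, 16.6 and 15.3 in the control and 45.9, 33.6 and 21.1 on day 4 (1.07 ± 0.28, adjusted p 0.0174, and up to 0.0931). It had 20.8, 21.6 and 25.6 on day 2 (0.58 ± 0.28, adjusted p 0.423) and 23.6, 28.7 and 18.4 on day 6. Both of these groups also lay above the control without overlap, and neither passed. The carriers of oxidative phosphorylation did not pass on any day. The ADP and ATP carrier Slc25a5 ranged from 143 to 182 over all 12 libraries with adjusted p of 0.83 to 0.993 against the control, and Slc25a4, the second ADP and ATP carrier, had 66.9 to 78.3 in the control and 34 to 70.3 on day 4 (adjusted p 0.0919). The phosphate carrier Slc25a3 ranged from 627 to 1471, and a small nucleolar RNA gene is annotated in it, so its reads may come from both.

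**Figure D3:**
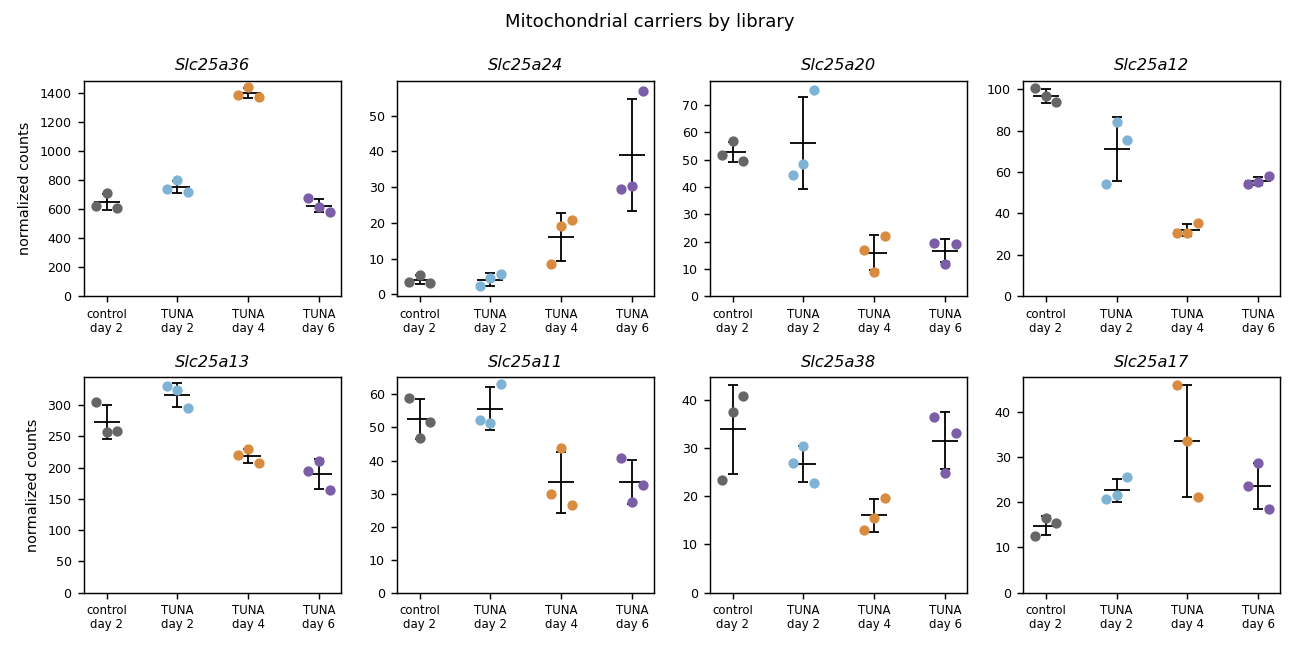
Normalized counts of 8 Slc25 genes in each library (points) by group, with the mean and SD of 3 libraries in black. Slc25a36 stands at 1369 to 1437 on day 4 and at 582 to 800.4 in the other groups, while Slc25a24 is highest on day 6 (29.4 to 56.9).

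Among 9 carriers of inorganic ions, 1 was higher and 2 lower on day 4 and 1 higher and 1 lower on day 6. The medians were 0.16 and 0.22, and -0.08 with none called on day 2. These counts are 33.3% and 22.2% of the group, beside 14.7% and 6.21% of all rows tested. Slc20a1 encodes PiT-1, a sodium and phosphate carrier of the cell surface. It had 218, 225 and 184 in the control, 161, 160.0 and 218 on day 2, 62.7, 91.9 and 86.4 on day 4, and 88.3, 78.3 and 110.5 on day 6. The later days lay under every earlier library (-1.38 ± 0.19, adjusted p 0.000126 on day 4, and -1.18 ± 0.19, adjusted p 0.000956 on day 6). The second phosphate carrier, PiT-2 or Slc20a2, had 169.6 to 205 in the control, 237 to 282 on day 2, 224 to 303 on day 4 and 218 to 236 on day 6, above the control in all 9 TUNA hairpin libraries, and passed on no day.

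Slc4a7 encodes NBCn1, which brings bicarbonate into the cell with sodium and so raises internal pH. It had 70.4, 76.5 and 70.9 in the control and 73.8, 74.8 and 73.5 on day 2, then 129, 113 and 126 on day 4 and 158, 143 and 150.2 on day 6. The groups of day 4 and day 6 overlapped neither with the earlier libraries nor with each other. Slc4a7 rose by 0.75 ± 0.14 on day 4 (adjusted p 0.00201) and by 1.04 ± 0.14 on day 6 (adjusted p 0.00026), with both calls kept when each library was left out. The potassium and chloride carrier KCC4, Slc12a7, had 31.6, 22.1 and 20.3 in the control, 10.9, 5.65 and 15.2 on day 4 and 7.7, 10 and 15.1 on day 6. It passed on day 4 (-1.21 ± 0.35, adjusted p 0.0271; up to 0.133 with 1 library left out) and not on day 6 (-1.13 ± 0.35, adjusted p 0.0676).

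The 18 carriers of carboxylates, vitamins, lipids and other organic solutes included 4 that were higher and 3 that were lower on day 4. On day 6, 1 was lower. The medians were 0.37 and -0.12, and 0.12 with none called on day 2. The share called was 38.9% on day 4 and 5.56% on day 6, beside 14.7% and 6.21% of all rows tested. Slc13a5 encodes NaCT, which imports citrate with sodium. It had 14.8, 13.2 and 13.6 in the control, 4.23, 3.85 and 11.6 on day 2, a listing at 0, 2.28 and 6.11 on day 4, and a listing at 0, 1.98 and 1.34 on day 6. Each of the 9 TUNA hairpin libraries was under each control library, including those of day 2, where the change did not pass (-1.12 ± 0.71, adjusted p 0.572). On day 4 Slc13a5 fell by 2.38 ± 0.71 on the log2 scale (adjusted p 0.0326; up to 0.137 with 1 of 5 libraries left out) and on day 6 by 2.96 ± 0.71 (adjusted p 0.0168; up to 0.0859 with 1 of 4 left out). The mitochondrial citrate carrier Slc25a1 ranged from 3.99 to 14.8 and passed in no comparison.

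Slc16a3 aside, the monocarboxylate carrier family gave 1 rise. Slc16a6, MCT7, had 4.31, 11.5 and 13.2 in the control, 23.5, 25 and 5.7 on day 2, 55.3, 27.4 and 45.2 on day 4, and 15.8, 16.4 and 20.9 on day 6. Its rise on day 4 (2.10 ± 0.47, adjusted p 0.00596) was kept with each library left out, and on day 6 it stood at 0.92 ± 0.47 (adjusted p 0.296). The protein-coding genes Amz2 and Arsg overlap Slc16a6 on the opposite strand in the annotation. Slc16a1, the lactate and pyruvate carrier MCT1, ranged from 163 to 279.8 over all libraries and passed on no day (adjusted p 0.583 to 0.953).

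Slc27a2 had 4.31, 6.44 and 3.31 in the control and 15.8, 15.9 and 18.3 on day 4 (1.67 ± 0.40, adjusted p 0.00917). Slc27a2 reached 10 normalized counts in the day 4 libraries and 1 day 6 library alone, so this test draws on the values that admitted it. Slc27a4 had 15.5, 12 and 16.7 in the control and 7.96, 2.28 and 2.44 on day 4 (-1.74 ± 0.43, adjusted p 0.0114; 0.0518 without day 4 replicate 2). On day 6 neither passed (adjusted p 0.281 and 0.45). Of the vitamin carriers, the thiamine carrier Slc19a2 was higher on day 4, at 195, 210.1 and 169.6 against 116, 140.0 and 139 (0.54 ± 0.16, adjusted p 0.0278). It had 194, 171 and 155 on day 2 (0.39 ± 0.16, adjusted p 0.309) and 191, 168 and 146 on day 6. Every TUNA hairpin library thus lay above every control library for Slc19a2. The ascorbate carrier Slc23a2 was lower on day 4, at 20.9, 31.2 and 29.1 against 42.8, 59.7 and 55.3 (-0.94 ± 0.25, adjusted p 0.0172). Both vitamin calls were lost with some libraries left out (up to 0.115 and 0.0745). Slc18a2, the vesicular monoamine carrier VMAT2, was higher on day 4, at 13.7, 10.3 and 17.1 against 3.45, 6.48 and 3.31 (1.46 ± 0.47, adjusted p 0.046; up to 0.125 with 1 of 5 libraries left out). Slc47a1, the cation and proton exchanger MATE1, was lower on day 6 (2.24, 4.68 and 1.9) than on day 4 (8.42, 14.8 and 12.1; -1.73 ± 0.48, adjusted p 0.0443; up to 0.13), while the control had 9.49, 3.68 and 9.93.

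**Figure D4:**
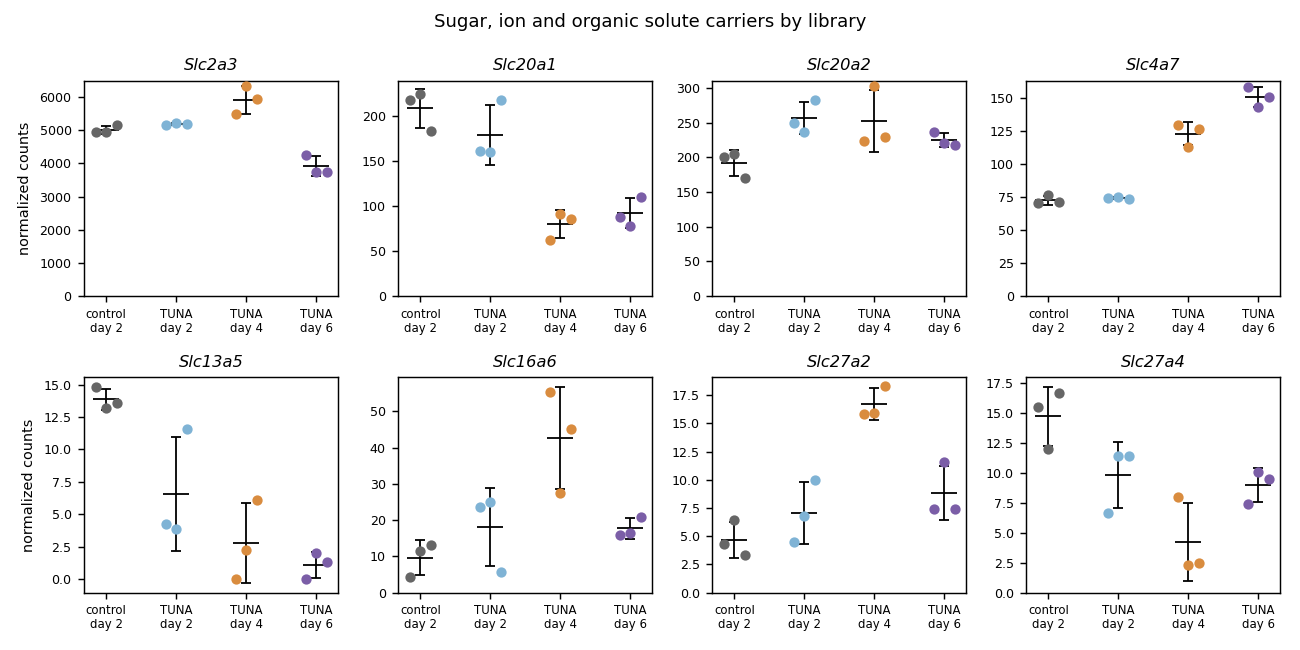
Normalized counts of 8 carriers of sugars, ions and organic solutes in each library (points) by group, with the mean and SD of 3 libraries in black. Slc20a1 is at 62.7 to 110.5 and Slc4a7 at 113 to 158 on days 4 and 6, against control ranges of 184 to 225 and 70.4 to 76.5.

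Of 14 carriers of nucleosides and nucleotide sugars, 1 was higher and 2 lower on day 4, and 2 were higher on day 6. The medians were -0.04 and 0.09, and 0.19 with none called on day 2. This amounts to 21.4% of the group on day 4 and 14.3% on day 6, beside 14.7% and 6.21% of all rows tested. Slc35f5, a member of the nucleotide sugar carrier family, had 7.77, 4.6 and 7.72 in the control, 14.6, 14.1 and 19.9 on day 2, 17.6, 26.2 and 28.1 on day 4, and 16.2, 10.9 and 22.7 on day 6. All 9 TUNA hairpin libraries were above all control libraries. It passed on day 4 (1.70 ± 0.33, adjusted p 0.00251) and day 6 (1.17 ± 0.33, adjusted p 0.0463; up to 0.163 with 1 of 5 libraries left out) and not on day 2 (1.18 ± 0.33, adjusted p 0.123). Slc35a3, which takes UDP-N-acetylglucosamine into the Golgi, had 43.8, 51.4 and 46.2 in the control and 72.6, 72 and 83.4 on day 6 (0.68 ± 0.17, adjusted p 0.0227, and up to 0.0917). It had 53.7, 64.5 and 61.3 on day 2 (0.34 ± 0.17, adjusted p 0.454) and 59.8, 76.1 and 65 on day 4, and passed on neither. Every TUNA hairpin library thus lay above every control library for Slc35a3. Slc35b1, a carrier of the endoplasmic reticulum, had 89.5, 69.2 and 61.6 in the control and 23.4, 25.1 and 72 on day 4, so that day 4 replicate 3 lay within the control range. Its call (-1.03 ± 0.32, adjusted p 0.0398) was lost without any of 5 libraries (up to 0.173). Slc35e1 was lower on day 4 (-0.71 ± 0.20, adjusted p 0.0228, and up to 0.116 with 1 library left out). On day 2 it was also under the control without overlap, and did not pass (-0.61 ± 0.20, adjusted p 0.199). Its mean was 62 in the control and 59.5 on day 6. The nucleoside carrier ENT1, Slc29a1, had 96.7 to 143 in the control, 52.5 to 114 on day 4 and 48 to 83.6 on day 6 and did not pass (adjusted p 0.0858 and 0.0823), though without day 4 replicate 3 it passed on day 4 (0.00865). Slc28a1 ranged from 2.44 to 22.4 and passed on no day.

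Of the 17 metal carriers, 1 was higher and 1 lower on day 4 and none passed on day 2 or day 6. The medians were 0.18, -0.01 and 0.04 on days 2, 4 and 6. The day 4 share of 11.8% lay under the 14.7% of all rows tested. Slc30a9, a zinc carrier of mitochondria, had 33.7, 23.4 and 54.8 in the control and 78.6, 70.5 and 62.4 on day 4 (0.98 ± 0.25, adjusted p 0.0132; 0.0757 without control replicate 2). Slc39a14, ZIP14, which imports zinc, manganese and iron, had 61.1, 80.2 and 67.9 in the control and 35.8, 36.5 and 39.5 on day 4, with no overlap (-0.88 ± 0.19, adjusted p 0.00549, kept with each library left out). On day 6 it was at 51.6, 48.3 and 72. The iron importer DMT1, Slc11a2, ranged from 9.78 to 30.3 and passed on no day, as did the zinc carrier Slc30a2 (7.33 to 22.9) and the heme carrier Slc48a1 (1.22 to 17.1). The iron exporter ferroportin, Slc40a1, and the folate carrier Slc19a1 stayed under the filter, at no more than 10.2 and 6.23 normalized counts.

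Of the 3 members that are no carriers, Slc9a3r1 fell. NHERF1, its protein, anchors membrane proteins such as sodium and proton exchangers to the cytoskeleton. It had 62.1, 55.2 and 43 in the control, 50.4, 40.9 and 42.7 on day 2, 11.7, 7.98 and 13.4 on day 4, and 27, 26.5 and 12.8 on day 6. All later libraries lay under all earlier ones (-2.19 ± 0.29, adjusted p 0.000106 on day 4, and -1.29 ± 0.29, adjusted p 0.0105 on day 6, the second 0.0577 without control replicate 1). Slc4a1ap (19.9 to 46.9) and Slc7a6os (34.6 to 61.6) passed in no comparison.

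**Figure D5:**
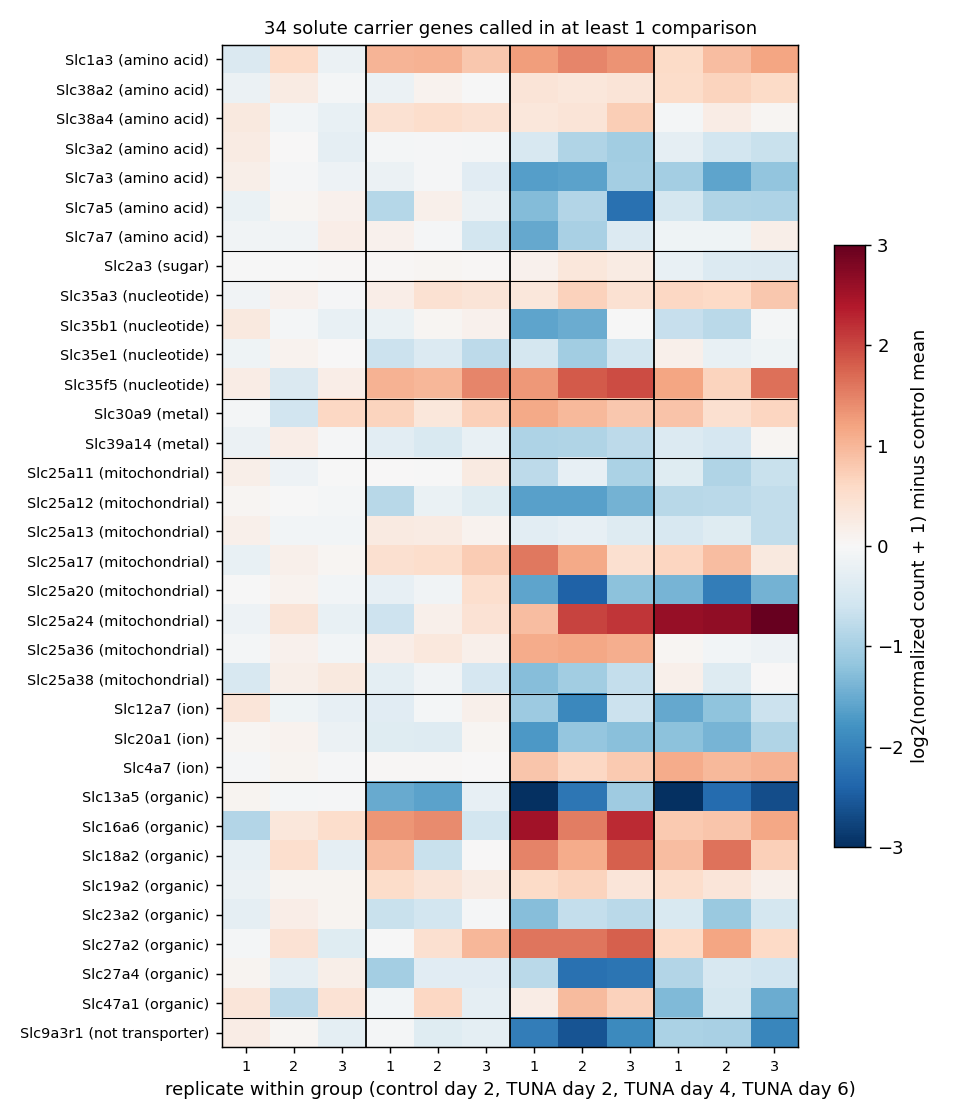
The plot shows 34 members called in at least 1 of the 5 comparisons (rows, by substrate group) in each of the 12 libraries (columns), coloured by log2(normalized count + 1) minus the control mean, with colours limited to -3 and 3. Slc25a36 stands out on day 4 (log2 change 1.12) and is near the control on day 6 (-0.05), while Slc25a24 has its strongest colour on day 6 (2.94).

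Genes that work beside these carriers were read from lists of other transport genes. The counts below stand beside a background of 14.7% of all rows called on day 4 (6.99% higher, 7.76% lower). On day 6 that background was 6.21% (3.07% higher, 3.15% lower). Of 16 tested genes with ABC family symbols, none was higher and 3 were lower on day 4, namely Abcb1a, Abcb1b and Abcf2. Abcf2, like Abce1, Abcf1 and Abcf3 among the 16, is not a membrane carrier. The multidrug pump Abcb1b had 66.4 against 109.8 normalized counts (-0.71 ± 0.16, adjusted p 0.00591). None of the 16 passed on day 2 or 6. Of 24 tested ion pumping ATPases, 1 was higher and 1 lower on day 4 and 1 lower on day 6. The calcium pump Atp2b4 was the one that fell on both days (-2.08 ± 0.50, adjusted p 0.00972, and -2.38 ± 0.50, adjusted p 0.00789). Of 14 tested partners and other carriers, 2 were higher and 2 lower on day 4. Emb, embigin, a chaperone of monocarboxylate carriers, rose from a mean of 29 to 87 on day 4 (1.57 ± 0.26, adjusted p 0.000768) and was also higher on day 6, at 74.9 (1.38 ± 0.26, adjusted p 0.00406). The transporter-like Mfsd5 was lower on day 4, at 16.4 against 44.1 (-1.37 ± 0.26, adjusted p 0.00189). Of 10 tested genes of metal handling, 1 was higher and 1 lower on day 4. The transferrin receptor Tfrc, which brings iron into the cell, had 622 in the control, 347 on day 4 (-0.84 ± 0.12, adjusted p 0.000171) and 369 on day 6 (-0.75 ± 0.12, adjusted p 0.000875), and the ferritin chain Fth1 was higher on day 4 (0.55 ± 0.17, adjusted p 0.0388).

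Upstream sequences of 83 of the 109 members were matched by symbol in RefSeq's table for GRCm38.p6, as the 250 bases before each annotated start. Here 4 are shown for members that rose (Slc25a36, Slc27a2) or fell (Slc20a1, Slc3a2) on day 4, 5′ to 3′ on the gene's strand. Capitals mark every match, on either strand, to the E-box CACGTG, which MYC and its partners bind, or to ACGTG, the core of the hypoxia response element, which also lies inside the E-box.
Slc25a36 (GRCm38.p6, chr9:97111042-97111291, minus strand): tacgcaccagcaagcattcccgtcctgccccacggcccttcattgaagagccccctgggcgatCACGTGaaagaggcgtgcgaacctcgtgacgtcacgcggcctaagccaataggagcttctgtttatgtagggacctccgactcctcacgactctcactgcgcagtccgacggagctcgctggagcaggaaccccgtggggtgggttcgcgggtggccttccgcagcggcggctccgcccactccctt
Slc27a2 (GRCm38.p6, chr2:126552774-126553023, plus strand): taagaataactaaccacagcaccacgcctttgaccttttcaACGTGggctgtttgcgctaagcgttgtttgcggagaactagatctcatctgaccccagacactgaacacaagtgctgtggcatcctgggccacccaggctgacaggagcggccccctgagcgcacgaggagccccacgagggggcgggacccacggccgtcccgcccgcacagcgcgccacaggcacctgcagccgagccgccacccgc
Slc20a1 (GRCm38.p6, chr2:129198523-129198772, plus strand): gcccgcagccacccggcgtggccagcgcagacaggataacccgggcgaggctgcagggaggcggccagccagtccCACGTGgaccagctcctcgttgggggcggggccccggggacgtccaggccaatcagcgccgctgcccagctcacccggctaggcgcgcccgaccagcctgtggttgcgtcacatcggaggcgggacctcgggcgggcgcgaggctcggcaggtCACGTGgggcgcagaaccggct
Slc3a2 (GRCm38.p6, chr19:8713898-8714147, minus strand): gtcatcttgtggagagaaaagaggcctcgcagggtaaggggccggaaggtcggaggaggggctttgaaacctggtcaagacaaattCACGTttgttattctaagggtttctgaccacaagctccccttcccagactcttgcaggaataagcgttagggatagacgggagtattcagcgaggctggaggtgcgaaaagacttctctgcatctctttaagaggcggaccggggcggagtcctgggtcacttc
The E-box stood 187 bases before the start in Slc25a36 and in 2 places in Slc20a1, the farther one 175 bases before the start (the window before a second annotated start of Slc20a1, not shown, held none of the motifs), while Slc27a2 and Slc3a2 held only the shorter ACGTG, 209 and 164 bases before it. By gene, the E-box was found in 1 of 11 members with sequence that were higher on day 4 and in 2 of 13 that were lower, beside 18.1% of all 83 members and 6.86% of all 27025 genes in the table, many of them noncoding. ACGTG was found in 3 of 11 and 4 of 13, beside 32.5% of members and 18.5% of all genes. The amino acid response element TGATGNAA, bound by ATF4, was found in none of the 11 and in 1 of the 13, Slc7a7, beside 3.61% and 3.91%. These matches describe letters in a window and say nothing of binding.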

How the data were processed

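Total RNA of 12 libraries of CCE cells was sequenced, 3 per group. The authors deposited 1 table of log2 normalized counts per gene symbol, in which 0 stands for 1 normalized count or less. Per the submitters' processing notes, BWA, DESeq and the build mm9 were used, with no version or role stated. Counting and strand handling are not given in the sources. The log2 was undone here and listings at 0 were set to 0 normalized counts, so a mean that holds one is a lower bound. limma 3.58.1 (R 4.3.3) was run on log2(normalized count + 1), pseudocount 1, using a mean for each group, an intensity trend, 8 residual and 9.48 prior degrees of freedom, over the 8739 rows that reached 10 normalized counts in 3 or more libraries. Benjamini-Hochberg adjustment was made separately in 5 comparisons, at a threshold of 0.05. The design had allowed for raw counts, and the test for normalized values was used because the values are log2. Errors of log2 changes are standard errors, and those of means are SDs with n = 3.

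A read was worth 0.651 to 1.42 normalized counts, from the step between the 2 most common values of a library; intervals on counts are not given, since many values are not whole multiples of that step. The members, the substrate groups and the lists were chosen with earlier results of these data known. Genes named are up to 10 rises and 10 falls per comparison with the control, 5 and 5 between days, the 3 members of each substrate group with the largest range of group means, and a list of well-known carriers (46 members in all, of which 1 is counted but not reported here); a few more are named as the rest of a family or count. Slc9a3r1, Slc4a1ap and Slc7a6os were moved to a group of their own after the data were seen. Exon lengths and overlapping genes came from GENCODE M21 (GRCm38), by symbol only, since the deposited values used mm9. Of the members, 53 overlap another annotated gene there, 42 of them on the opposite strand. The fit was tested on simulated counts. Alternatives were 2 other scalings, no filter and a filter of 6 libraries, pseudocounts of 0.5 and 5, the 2 groups alone, no variance trend, a block on the replicate number, each library left out, and a threshold of 0.01. Python 3.11.15 with matplotlib 3.10.9 made the plots.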

Additional observations from a re-analysis of the deposited data

Results flagged for a closer look

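Between days of the TUNA hairpin, the effects of several members against the shared control differed by the test of the difference itself, limma with Benjamini-Hochberg adjustment. From day 2 to day 4 the log2 difference was -1.94 for Slc9a3r1, -1.79 for Slc25a20, -1.25 for Slc7a3, -1.15 for Slc20a1, -1.10 for Slc25a12, -0.77 for Slc3a2, -0.75 for Slc25a11 and -0.53 for Slc25a13. It was 0.72 for Slc4a7, 0.90 for Slc25a36 and 1.71 for Slc25a24. From day 4 to day 6 it was -1.73 for Slc47a1, -1.17 for Slc25a36 and -0.60 for Slc2a3, and 0.78 for Slc25a12 and 0.94 for Slc25a38. Slc25a36 and Slc25a12 passed in both steps, each with the sign turned between them.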

How the results depend on the processing

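No log2 change of a named member that passed the test changed sign under any alternative, and none of the 109 passed on day 2 under any of them. Under both other scalings all 154 named results kept their side of the threshold. The median of all rows moved by less than 0.1 (log2) under them. Of 51 named results that passed, 9 no longer did in the fit of the 2 groups alone, 6 without a filter, 5 without the trend, 3 with the replicate block and 26 at the threshold of 0.01. Of 103 that did not pass, 25 changed sign in at least 1 setting without passing. At 0.01, day 4 had 5 higher and 7 lower members, day 6 had 2 and 3, and the step from day 4 to day 6 had 0 and 1. In the fit of the 2 groups alone, 2 members were higher on day 6 and the last step had 0 higher and 1 lower. Without a filter that step had 1 and 1. From day 2 to day 4, 5 were higher with a pseudocount of 5 and without the trend. With 1 library left out, day 4 against the control gave 8 to 10 higher and 9 to 20 lower members, day 6 gave 2 to 4 and 3 to 7, day 4 against day 2 gave 2 to 4 and 6 to 10, and day 6 against day 4 gave 0 to 4 and 1 to 2. The day 6 counts were lowest without control replicate 1 (2 higher, 3 lower), and the last step lost both rises without day 4 replicate 2 or day 6 replicate 1. The causes were not tested. The labels do not state whether libraries of the same replicate number belong together. Same-numbered libraries correlated at -0.277 to 0.328 after group means were removed, and 3 of 18 pairs were over 0.1. A library's best partner in another group had its number in 14 of 36 cases. With 3 libraries per group these values cannot decide whether the libraries were paired. With the replicate block the rises from day 4 to day 6 numbered 1 instead of 2, and no other count moved by over 1.5 times. Calls on members near 10 normalized counts rest on 7.02 to 15.4 reads per library.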
